A study of Rattus norvegicus with 15 samples.

Results

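The sodium pump genes described here are 7 genes of the Na,K-ATPase complex, 4 FXYD regulators (Fxyd1, Fxyd2, Fxyd6 and Fxyd7) and 3 beta subunits (Atp1b1, Atp1b2 and Atp1b3), in the subfornical organ of the rat. All probe sets annotated to these symbols were taken, which gave 9 of the 31099 probe sets and 7 of the 14218 named genes on the array. Each of the 9 passed the filter on dim probe sets (mean above 18.6 signal units). The genes were chosen by a measured value, the difference of Fxyd2 between water deprivation and control, so that comparison is described for all 7 without a test. Every other value of Fxyd2 shares arrays with it and is described without a test as well. RNA was measured on 15 Affymetrix rat arrays, 5 each for control, water-deprived and food-deprived male Sprague Dawley rats of 10 to 12 weeks. Each array carries a pool of 5 animals, 25 animals for a group. Food was withheld for 48 h in the food-deprived group per its treatment protocol, and the labels of the other groups carry no such protocol. The design text can be read as 48 h without food in every condition. For how long water was withheld is not stated in the labels or the design text.

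The Na,K-ATPase exports sodium and imports potassium at the cost of ATP, and so sets the sodium gradient on which neuronal firing, transmitter uptake and fluid secretion depend. Its alpha subunit carries the catalytic and ion-binding sites, its beta subunit is needed for folding and delivery to the membrane, and a small FXYD protein tunes its affinity for ions. The subfornical organ lies outside the blood-brain barrier on the wall of the third ventricle, close to choroid plexus and ependyma, and senses circulating angiotensin II, sodium and osmolality. The probe set of Atp1a4, the sperm-specific catalytic subunit, had a signal of 0.377 to 4.78 and lay below the filter.

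The arrays form 2 sets by the 5′/3′ signal ratio of the Actb and Gapdh control probe sets, which falls when RNA is degraded or copied over a short stretch. The high set of 7 consists of the food-deprived group (5 arrays) with 2 of the water-deprived group (replicates 1 and 2), with mean log2 ratios of -0.86 to -0.71. The low set of 8 holds all 5 controls and water-deprived arrays 3 to 5, at -2.81 to -1.24. Within it water-deprived array 3 stands apart at -2.81, and the other low arrays lie at -1.67 to -1.24. Food deprivation and control therefore share no set, and their difference cannot be told apart from the set difference except through the water-deprived arrays. Every comparison below was fitted with a model of the 3 groups and with a model that adds the array set as a term. Values are from the first unless the term, the set difference or another fit is named. Of the 7 markers listed for subfornical organ neurons, 5 were measured (Agtr1a, Casr, Calcr, Scn7a and Npr1). The supraoptic and paraventricular hormone genes Avp and Oxt were also present. Their summed signal was 691 to 3276 in controls and 745.5 to 3199.9 on low water-deprived arrays. It was 146.6 to 265.6 on high water-deprived arrays and 84.1 to 142 in food-deprived arrays, so it divided by array set within the water-deprived group.

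Fxyd2 encodes the gamma subunit of the pump, best known from kidney tubules. Its signal in the controls was 43.5, 35.4, 38.6, 72.2 and 46.5 (arrays 1 to 5). In the water-deprived arrays it was 59.4 and 48.5 in the high set and 128, 133 and 115 in the low set. In the food-deprived arrays it was 36.3, 22.6, 29.2, 38.2 and 37.3. The 3 low water-deprived arrays lay above every other array, and all 5 water-deprived arrays lay above every food-deprived array. Water-deprived and control arrays overlapped, since the high water-deprived arrays fell within the control range. The order of the group medians was water deprivation (115), control (43.5) and food deprivation (36.3), and the lower pair overlapped.

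The plot of signal by array shows this division within the water-deprived group for Fxyd2 and, with another group pattern, for Atp1b2.

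**Figure D1:**
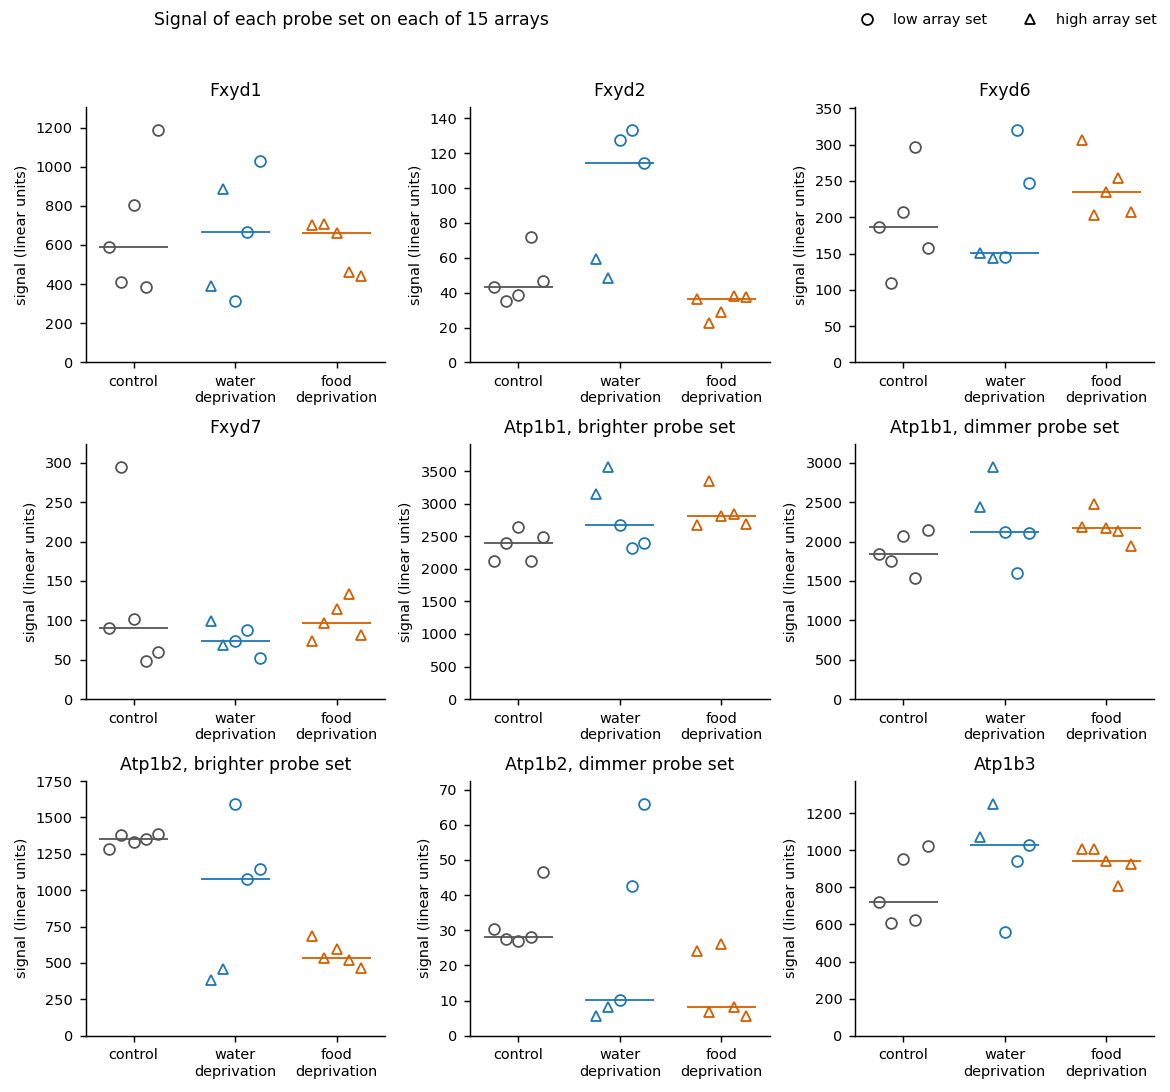
Signal of the 9 probe sets (y axis, linear units from 0) on the 15 arrays by group, with the array set as the symbol and a line at each group median. Fxyd2 is highest on the 3 low-set water-deprived arrays (115 to 133), and Atp1b2 (brighter probe set) is at or below 685 on all 7 high-set arrays and at or above 1079 on all 8 low-set arrays.

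As a description, Fxyd2 differed between water deprivation and control by a log2 value of 0.78 (SE 0.23, 1.71-fold, 5 arrays against 5). All differences are of log2(signal + 16), which understates the change of dim probe sets. With the array set as a term, which leaves the low arrays, 3 against 5, it was 1.18 (SE 0.16, 2.27-fold). This value chose the genes and supports nothing here. It came from a list of 6 of 21729 probe sets (0.0276%) higher at a limma adjusted p under 0.05, and that list was empty when a block for the replicate number was added, or when control 3 or water-deprived array 3 was dropped. Without water-deprived array 4 it held 1 higher and 2 lower. Leaving out 1 array at a time moved the Fxyd2 value between 1.11 and 1.31.

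Water against food deprivation uses the same water-deprived arrays. Fxyd2 was 1.14 higher there on the log2 scale (SE 0.23, 2.20-fold, above every food-deprived array in 5 of 5 arrays), and without each array in turn the value ran from 1.02 to 1.32. Within the high set the 2 water-deprived arrays (48.5 and 59.4) lay above all 5 food-deprived arrays (22.6 to 38.2). The difference with the array set as a term was 0.53 (SE 0.19). Food deprivation against control gave -0.36 (SE 0.23) and, with the array set as a term, 0.65 (SE 0.25), so the direction depended on the term.

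Between the array sets the Fxyd2 value was 1.01 lower in the high set (log2 difference -1.01, SE 0.21). It is estimated from water-deprived arrays 1 and 2 against 3 to 5, which share the treatment label and include the arrays that chose the gene. Whether the high water-deprived signal of the 3 low arrays goes with the treatment or with the set was not tested.

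Fxyd1 encodes phospholemman, a phosphorylated pump regulator of heart, muscle and choroid plexus. Its signal was 590, 411, 803, 388 and 1185 in controls, 392, 884, 314, 669 and 1027 in water deprivation, and 701, 706, 660, 462 and 440 in food deprivation. The groups overlapped, and the highest array of the controls was 3.06 times the lowest, against 3.27 in water deprivation and 1.60 in food deprivation. The differences from control were -0.05 (SE 0.33) for water, as a description, and -0.09 (SE 0.33, limma adjusted p = 0.905) for food deprivation. Between water and food deprivation the value was 0.04 (SE 0.33, limma adjusted p = 0.971). Between array sets it was -0.03 (SE 0.49, limma adjusted p = 0.975), the smallest set difference of the 9 probe sets.

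Fxyd6, or phosphohippolin, is a regulator expressed in brain. It lay next to Fxyd2 in the RefSeq gene order, the pair being neighbours with no protein-coding gene between them. Its signal was 109 to 296 in controls (median 187), 144 to 319 in water deprivation (median 151) and 203 to 306 in food deprivation (median 235), with overlap in every pair of groups. Food deprivation was 0.36 above control (SE 0.24, limma adjusted p = 0.366) and 0.93 with the array set as a term (SE 0.39, limma adjusted p = 0.555). Water minus food was -0.30 (SE 0.24, limma adjusted p = 0.574) and -0.64 with the term (SE 0.30, limma adjusted p = 0.496). In the high set both water-deprived arrays (144 and 151) lay below all 5 food-deprived arrays, the opposite order to Fxyd2 in the same arrays. Across the 15 arrays Fxyd6 and its neighbour correlated at 0.16, or 0.25 after subtracting the mean of each array set, given as a description.

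Fxyd7 is a FXYD regulator found mainly in brain. Its signal was 89.8, 295, 101, 48.9 and 59.2 in controls, 99.1, 69.3, 74.2, 88.3 and 52.6 in water deprivation, and 73.6, 97.0, 114, 133 and 81.5 in food deprivation. Control 2 stood apart at 295, and the other arrays lay between 48.9 and 133 in every group. Food deprivation minus control was 0.01 (SE 0.32, limma adjusted p = 0.994), or 0.37 without control 2. Water minus food was -0.32 (SE 0.32, limma adjusted p = 0.655), and water minus control was described at -0.31 (SE 0.32). In the RefSeq order Fxyd7 lies between Fxyd5 and Fxyd1, and its correlation with Fxyd1 over the 15 arrays was -0.34.

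Atp1b2 encodes the beta 2 subunit, also known as the adhesion molecule on glia. Its brighter probe set gave the largest group difference among the beta subunits. The controls were at 1280, 1381, 1333, 1352 and 1384, the food-deprived arrays at 685, 533, 594, 517 and 466, and the water-deprived arrays at 384, 461, 1594, 1079 and 1148. All 5 food-deprived arrays lay below all 5 controls, and the controls differed among themselves by 1.08-fold at most. Food deprivation fell by 1.26 on the log2 scale against control (SE 0.29, 2.39-fold lower, limma adjusted p = 0.0184). The compared arrays come from different sets, high for food deprivation and low for control.

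Within the array sets the order differed. The 2 high-set water-deprived arrays (384 and 461) lay below all 5 food-deprived arrays (466 to 685), and the 3 low-set water-deprived arrays (1079 to 1594) overlapped the controls. With the array set as a term, food minus control was 0.29 (SE 0.20, limma adjusted p = 0.672), of opposite sign to the value without it. With the 5′/3′ ratio itself as a term it was -0.68 (limma adjusted p = 0.175). Water-deprived array 3, which stands apart with the lowest ratio (-2.81), also had the highest signal (1594) in that fit. Water minus food was 0.54 (SE 0.29, limma adjusted p = 0.381) without the term and -0.39 with it (SE 0.15, limma adjusted p = 0.423). The set difference was -1.54 (SE 0.17, 2.91-fold lower in the high set, limma adjusted p = 9.76e-05), the largest of the 9 probe sets. The second, dim probe set of Atp1b2 gave 5.60 to 26.1 in food deprivation and 27.0 to 46.5 in controls, a difference of -0.72 (SE 0.33, limma adjusted p = 0.180) that did not pass. Its mean log2 value in food deprivation, 4.85, is below the filter at 5.11, which it passed through the other groups, so it is no check of the brighter probe set. Its set difference was -1.13 (SE 0.39, limma adjusted p = 0.0620).

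Atp1b1 encodes the beta 1 subunit, the common partner of the catalytic subunits in neurons and epithelia. The brighter of its probe sets was at 2127, 2391, 2646, 2124 and 2492 in controls, 3145, 3564, 2671, 2329 and 2393 in water deprivation, and 2677, 3350, 2819, 2850 and 2692 in food deprivation. All food-deprived arrays lay above all controls, by a small margin, and both high-set water-deprived arrays lay above the 3 low ones. The difference between food deprivation and control was 0.29 (SE 0.12, 1.22-fold, limma adjusted p = 0.125), which did not pass, while a fit of those 10 arrays alone gave the same difference with an adjusted p = 0.0346. It was -0.15 (SE 0.15, limma adjusted p = 0.757) with the array set as a term. Between the sets Atp1b1 was 0.44 higher in the high set (SE 0.12, 1.36-fold, limma adjusted p = 0.0226). This call depended on the scaling and on single arrays. It was lost after quantile normalization (0.13, limma adjusted p = 0.324) and without water-deprived array 1 (0.53, limma adjusted p = 0.0542), 2 (0.35, limma adjusted p = 0.203) or 4 (0.40, limma adjusted p = 0.0631).

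The other Atp1b1 probe set had the same pattern, with a correlation of 0.90 to the brighter one over 15 arrays (0.83 after subtracting set means). It gave 0.23 for food minus control (SE 0.14, limma adjusted p = 0.310) and 0.47 for the set difference (SE 0.16, limma adjusted p = 0.0514), just outside the threshold. The 2 probe sets of Atp1b2 correlated at 0.69, and at 0.06 after subtracting set means, so the pooled value did not hold within sets. The mean log2 value of the dim one was below the filter on the high water-deprived arrays (4.51) and in food deprivation (4.85). The value of 0.06 therefore cannot show whether the 2 probe sets agree. Atp1b1 and Atp1b2 ran in opposite directions over the 15 arrays (r = -0.77), and at -0.15 after subtracting set means. Water minus control, as a description, was 0.24 (SE 0.12) for Atp1b1 and -0.72 (SE 0.29) for Atp1b2, and with the array set as a term 0.07 (SE 0.10) and -0.10 (SE 0.13).

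Atp1b3 encodes the beta 3 subunit, found in many tissues. Its signal was 721, 609, 951, 625 and 1024 in controls, 1071, 1251, 558, 942 and 1028 in water deprivation, and 1009, 1007, 939, 807 and 928 in food deprivation. The groups overlapped. Food minus control was 0.28 (SE 0.19, limma adjusted p = 0.375), and -0.22 with the array set as a term (SE 0.30, limma adjusted p = 0.840). Water minus food was 0.00 (0.0045, SE 0.19, limma adjusted p = 0.993), and the set difference was 0.50 (SE 0.25, limma adjusted p = 0.181).

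**Figure D2:**
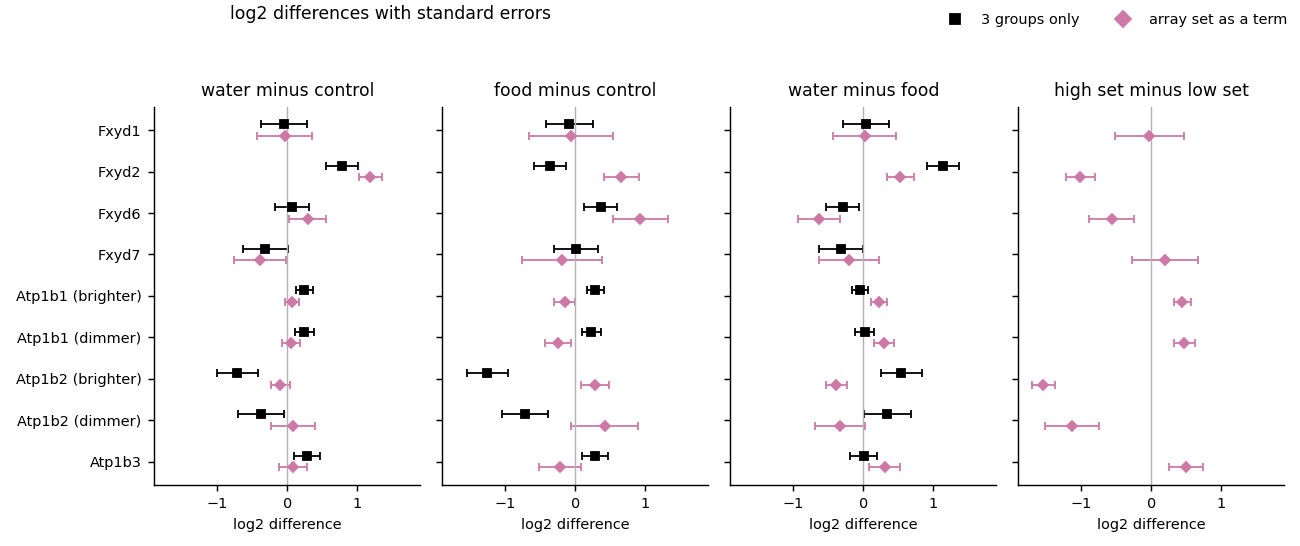
log2 differences (points, x axis) with standard errors (bars) for the 9 probe sets, from the model of the 3 groups and from the model that adds the array set. The term moves Atp1b2 from -1.26 to 0.29 and Fxyd2 from -0.36 to 0.65 in food minus control, and the set differences run from -1.54 (Atp1b2) to 0.50 (Atp1b3).

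Counted over the 8 probe sets other than that of Fxyd2, food deprivation against control had 1 lower (Atp1b2) and 0 higher at the limma threshold, beside 3.76% of all tested probe sets lower and 4.77% higher (817 and 1037 probe sets, or 972 and 815 after quantile normalization and 1179 and 652 after median centring). At an unadjusted p under 0.05 there were 3 of 8, against 26.3% of all tested. These were the brighter of Atp1b1 and both of Atp1b2, of which the dim one lies below the filter in food deprivation. Probe sets whose food-deprived and control arrays do not overlap numbered 3 of 8 (both of Atp1b2, of which the dim one lies below the filter in food deprivation, and the brighter of Atp1b1), against 15.4% of all tested. The median difference of the 8 was 0.12, and of all tested probe sets 0.05. In water against food deprivation limma called 0 of 8 (0.133% of all tested were higher and 0.0184% lower), with 0 at an unadjusted p under 0.05 (15.8% of all tested) and 0 without overlap (3.52% of all tested).

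With the array set as a term limma called 0 of 8 in food deprivation against control and 0 of 8 in water against food deprivation, as it called 0% of all tested in either direction of both. At an unadjusted p under 0.05 these were 1 and 2 of 8, against 8.65% and 10.0% of all tested. Between the array sets 1 of 8 was higher in the high set (Atp1b1) and 1 of 8 lower (Atp1b2), beside 9.49% higher and 6.44% lower of all tested (2062 and 1399 probe sets, or 1433 and 1479 after quantile normalization). Without water-deprived array 1, 2 or 4 the 2 calls became 1. Without array 2 the calls over all tested probe sets fell as well, to 464 higher and 374 lower. The comparisons share arrays and are not independent of one another.

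The genes whose pattern over the 15 arrays was most like that of Fxyd2, among 11509 others, were Vgf (Pearson's r = 0.93), Casr (0.91), Cct3 (0.91), Cul1 (0.89) and Dusp1 (0.89). Vgf is the precursor of secreted neuropeptides, Casr the calcium-sensing receptor, Cct3 a chaperonin subunit, Cul1 a ubiquitin ligase scaffold and Dusp1 a phosphatase induced by activity. After subtracting the mean of each array set they were Deptor (0.94), an inhibitor of mTOR, Scg2 (0.89), a granin, Cul1 (0.89), Vgf (0.89) and Casr (0.89). These are descriptions, since the arrays share groups and sets, and Vgf and Casr rose in the same water comparison that chose Fxyd2. After subtracting the mean of each group within each set, r was 0.33 for Vgf, 0.38 for Casr and 0.43 for Dusp1. It was 0.54 for Scg2, 0.57 for Cul1, 0.65 for Cct3 and 0.68 for Deptor.

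The array values of Vgf show the likeness. Vgf was at 582 to 1052 on the low and 247 to 262 on the high water-deprived arrays, 114 to 289 in controls and 90.4 to 125 in food deprivation. Casr was at 127 to 176, 63.1 to 65.8, 32.6 to 77 and 25.7 to 51.3 in the same order. Both therefore had their highest values on the 3 arrays where Fxyd2 was highest, with the high water-deprived arrays above all food-deprived arrays, as for Fxyd2.

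Levels of the pump genes were then set beside markers of cell types that the dissected tissue can hold, as the mean log2(signal + 16) of each marker list on each array. In bulk tissue fewer cells of a type and less RNA per cell cannot be told apart. For 7 genes and 8 lists 56 correlations were computed over 15 arrays. Two-sided permutation p-values are given for the 48 without Fxyd2 and adjusted over those 48. The permutations shuffled all 15 arrays without regard to group or array set. A difference between sets that a gene and a list share can therefore give a small p.

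Atp1b3 followed the choroid plexus and ependyma list (9 of 12 markers measured, including Ttr, Folr1, Aqp1 and Otx2). Pearson's r was 0.98 (adjusted permutation p = 0.00048) and Spearman's rho 0.95 (adjusted permutation p = 0.00048), both from the smallest p that the permutations can give, 1e-05. It was 0.96 in the low set (8 arrays), 0.99 in the high set (7 arrays), 0.97 without the 2 arrays farthest from the list's median, and 0.99 after subtracting the mean of each group within each set. The lowest Atp1b3 value (558, water-deprived array 3) and the highest (1251, water-deprived array 2) fell on the arrays with the lowest and the highest list mean, 7.42 and 10.12. The list's summed signal was 6080 to 12996 in controls, 4059 to 11632 on low and 14757 to 19253 on high water-deprived arrays, and 9792 to 18053 in food deprivation.

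Fxyd1 followed the same list, with r = 0.72 (adjusted permutation p = 0.0150) and rho = 0.67 (adjusted permutation p = 0.0443). The relation was close in the low set (r = 0.95) and weaker in the high set (r = 0.55), and r was 0.58 without the 2 farthest arrays. Fxyd1 and Atp1b3 correlated with each other at 0.71, and at 0.86 after subtracting set means, the closest pair of the 7 genes. Folr1, a folate receptor of the choroid plexus epithelium, ranged from 118 to 1679 in controls and Aqp1, its water channel, from 20.1 to 535, so the amount of these transcripts varied widely between pools of the same group. Fxyd1 ran against the neuron list (r = -0.78, adjusted permutation p = 0.00468; rho = -0.76, adjusted permutation p = 0.0164; -0.80 in the low and -0.74 in the high set; -0.72 without the 2 farthest arrays).

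Because Fxyd1 and Atp1b3 moved together, the 250 bases before their start sites are shown, from RefSeq on the GRCr8 build, both on the minus strand, at chr1:95418581-95418830 for Fxyd1 and chr8:105821152-105821401 for Atp1b3. Capitals mark the GC box GGGCGG on either strand.
Fxyd1: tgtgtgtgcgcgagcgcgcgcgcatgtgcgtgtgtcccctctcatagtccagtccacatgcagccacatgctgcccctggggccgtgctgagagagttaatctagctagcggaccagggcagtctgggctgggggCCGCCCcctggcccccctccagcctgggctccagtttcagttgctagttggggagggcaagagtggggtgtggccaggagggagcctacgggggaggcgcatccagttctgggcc
Atp1b3: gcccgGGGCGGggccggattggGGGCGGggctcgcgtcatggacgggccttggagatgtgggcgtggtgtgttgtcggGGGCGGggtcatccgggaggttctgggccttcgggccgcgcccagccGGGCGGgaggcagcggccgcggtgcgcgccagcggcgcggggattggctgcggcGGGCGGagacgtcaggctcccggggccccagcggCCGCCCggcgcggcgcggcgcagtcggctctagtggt
The Fxyd1 window holds 1 GC box and the Atp1b3 window 6, while 30.47% of all 33469 windows of this length hold at least 1. The CCAAT box, CCAAT on either strand, is absent from the Fxyd1 window and present at 2 places in that of Atp1b3 (34.02% of all windows). Neither window holds TATAAA (12.93% of all windows). G and C make up 66.8% and 79.6% of the bases, against a median of 51.2%. These are matches of letters and no evidence of binding.

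Fxyd7 followed the oligodendrocyte list (9 of 10 markers measured), with r = 0.78 (adjusted permutation p = 0.00360) and rho = 0.86 (adjusted permutation p = 0.00144). The value was 0.83 in the low set, 0.82 in the high set and 0.87 without the 2 farthest arrays. Control 2, where Fxyd7 was at 295, had the highest oligodendrocyte mean of the 15 arrays, 10.73. Fxyd7 also followed the astrocyte list (r = 0.77, adjusted permutation p = 0.00854; rho = 0.65, adjusted permutation p = 0.0476; 0.79 and 0.76 within the low and high sets) and the neuron list (r = 0.71, adjusted permutation p = 0.0380; rho = 0.73, adjusted permutation p = 0.0219; 0.67 and 0.94 within the sets). Without the 2 farthest arrays these were 0.64 and 0.60. The oligodendrocyte list's summed signal was 5894 to 18348 in controls, 5252 to 12052 on low and 10541 to 14579 on high water-deprived arrays, and 12086 to 17494 in food deprivation.

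**Figure D3:**
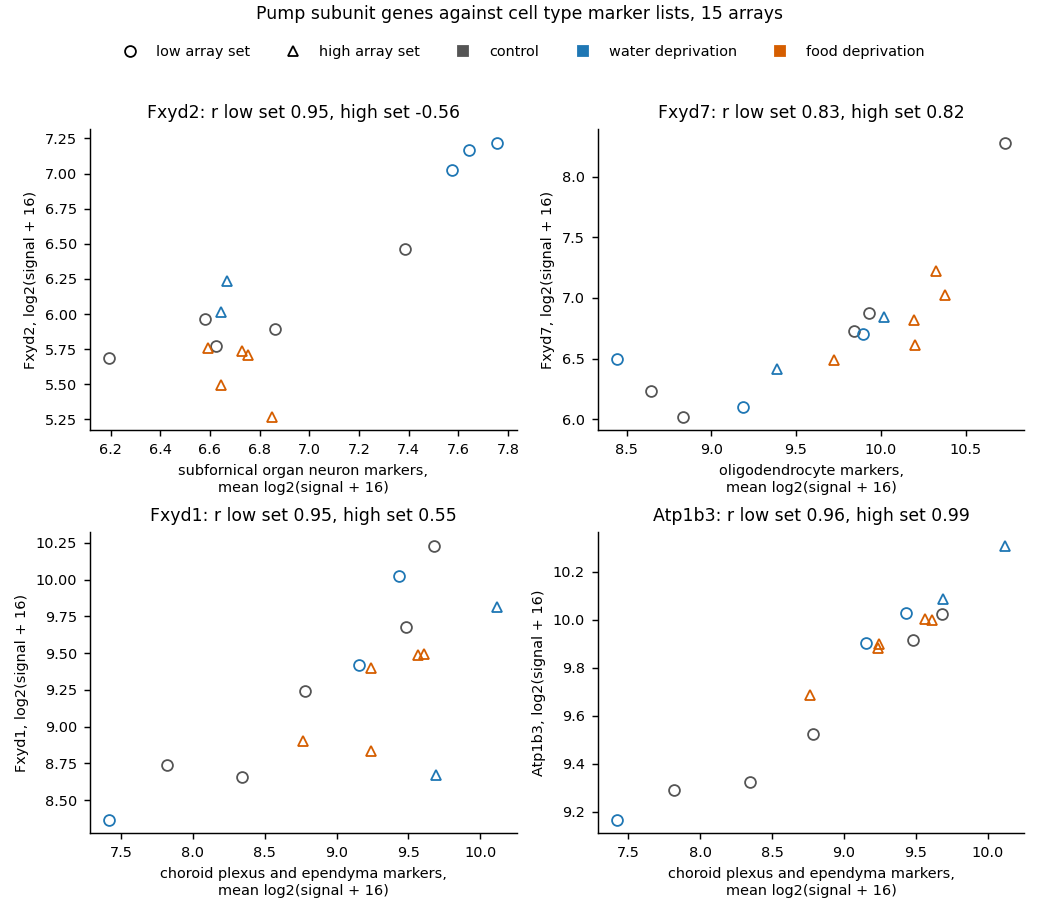
log2(signal + 16) of 4 pump genes (y axes) against the mean log2(signal + 16) of a marker list (x axes), 1 point per array, with the group as colour and the array set as symbol. Atp1b3 lies along a single line with the choroid plexus and ependyma list in both sets (r = 0.96 and 0.99). Fxyd2 and the subfornical organ neuron list have r = 0.95 in the low and -0.56 in the high set. The Fxyd2 values are a description, since the low water-deprived arrays chose that gene.

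Fxyd2 and the subfornical organ neuron list had r = 0.86 and rho = 0.55 over the 15 arrays, given as a description because the 3 low water-deprived arrays chose the gene. The relation held in the low set (r = 0.95) and not in the high set (r = -0.56), and r was 0.72 without the 2 farthest arrays. After subtracting the mean of each group within each set it was 0.65. The list's summed signal was 1052 to 1236 on the low water-deprived arrays, 354 to 875 in controls, 512 to 542 on the high water-deprived arrays and 472 to 594 in food deprivation. In the low set the 3 water-deprived arrays were thus highest both in Fxyd2 and in the list, and control 4, with the highest Fxyd2 of the controls (72.2), had the highest list mean among them. The list includes Casr, which was higher in the same comparison that chose Fxyd2. In the model that adds the array set, 3 of the 5 markers (Casr, Calcr and Npr1) were lower in the high set and 0 were higher. Of all tested probe sets 6.44% were lower and 9.49% higher there. The Fxyd2 value was lower in the high set too. The part of these markers in the Fxyd2 values was not tested.

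Atp1b2 correlated with the Avp and Oxt list at 0.84 (adjusted permutation p = 0.00468; rho = 0.66, adjusted permutation p = 0.0443; 0.84 without the 2 farthest arrays), but at 0.14 within the low and -0.90 within the high set, so the pooled value did not hold within sets. Its correlation with the astrocyte list, whose cells express the beta 2 subunit, was -0.05 (adjusted permutation p = 0.933). Within the sets it was 0.24 (low) and 0.37 (high). Atp1b1 and Fxyd6 had no adjusted p for r below the threshold with any of the 8 lists. Atp1b1 passed for rho with the Avp and Oxt list (rho = -0.65, adjusted permutation p = 0.0476). Within the low and high sets its r with that list was 0.57 and 0.34, of the opposite sign. The other relations past the threshold for r were Fxyd1 with the astrocyte list and Atp1b3 with the microglia list. Fxyd1 had r = -0.68 (adjusted permutation p = 0.0326), with -0.78 in the low and -0.42 in the high set. Its rho did not pass (-0.58, adjusted permutation p = 0.0931), and r was -0.53 without the 2 farthest arrays. Atp1b3 had r = -0.68 (adjusted permutation p = 0.0348) and rho = -0.85 (adjusted permutation p = 0.00192), with r at -0.77 and -0.89 within the sets. For rho but not r, Atp1b3 passed with the neuron list (rho = -0.69, adjusted permutation p = 0.0383), r being -0.73 and -0.815 within the sets. The same held for the astrocyte list (rho = -0.75, adjusted permutation p = 0.0164), with -0.75 and -0.94.

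**Figure D4:**
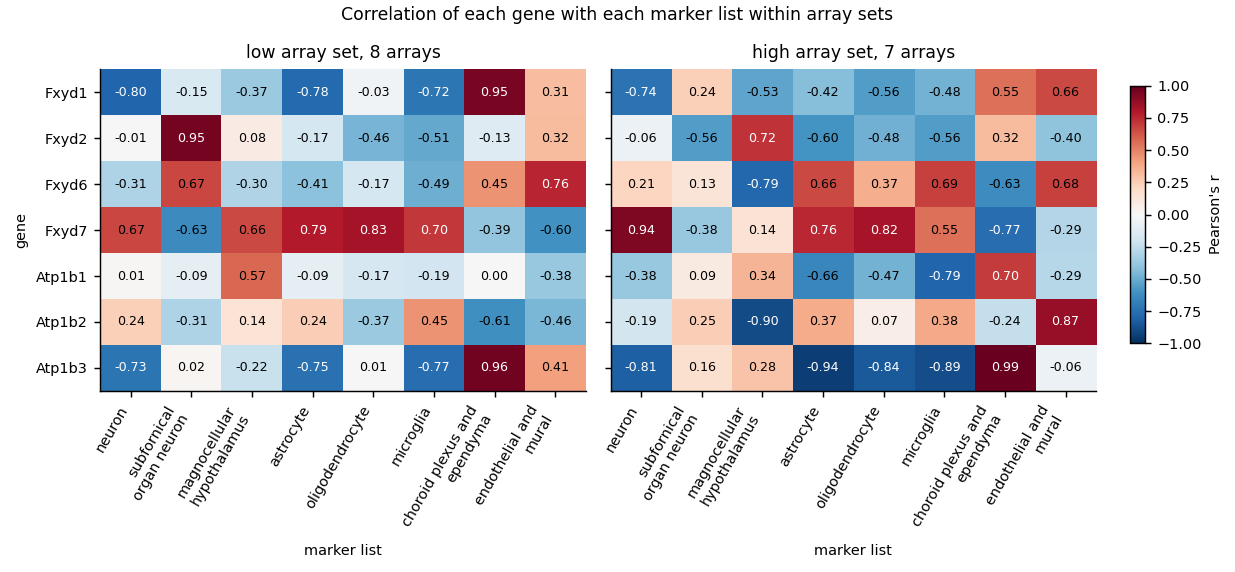
Pearson's r of each of the 7 genes (rows) with each of 8 marker lists (columns), within the low array set (left, 8 arrays) and the high array set (right, 7 arrays), with the value printed in each cell and the colour running from -1 to 1. The choroid plexus and ependyma column is high in both sets for Atp1b3 (0.96 and 0.99) and Fxyd1 (0.95 and 0.55), and the oligodendrocyte column for Fxyd7 (0.83 and 0.82).

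Of the remaining beta and FXYD genes, Fxyd3 and Fxyd5 passed the filter, and Fxyd4 and Atp1b4 did not. Fxyd3, a regulator of epithelia, was at 29.3 to 38.7 in controls, 28.8 to 44.0 on low and 51.8 to 56.5 on high water-deprived arrays, and 54.6 to 70.5 in food deprivation. It rose in food deprivation against control (0.58, SE 0.13, limma adjusted p = 0.0142, higher in 5 of 5 arrays), the 1 call of the 2 genes. Of all tested probe sets 4.77% were called higher there, and 15.4% had no overlap between these groups. With the array set as a term it was 0.15 (SE 0.18, limma adjusted p = 0.818), and the set difference was 0.44 (SE 0.15, limma adjusted p = 0.0566). Fxyd5, or dysadherin, was at -0.28 in food deprivation (SE 0.11, limma adjusted p = 0.128).

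Among 18 measured partners and kinases of the pump, food deprivation against control had 1 lower, Src, a tyrosine kinase that binds the catalytic subunit (-0.80, SE 0.20, limma adjusted p = 0.0250), and 0 higher (median 0.10). Src was at 0.10 with the array set as a term (SE 0.22, limma adjusted p = 0.908), and it was lower in the high set (-0.90, SE 0.18, limma adjusted p = 0.00482). Of 20 measured transporters run by the sodium gradient, 0 passed in food deprivation against control (median 0.08) or in water against food deprivation (median -0.15). Between the array sets 1 was higher, the sodium-calcium exchanger gene Slc8a2 (0.61, SE 0.20, limma adjusted p = 0.0462), and 3 were lower: the taurine transporter gene Slc6a6 (-0.75), the potassium-dependent exchanger gene Slc24a3 (-1.09) and Slc12a3 (-0.95), the sodium-chloride cotransporter of the distal kidney tubule. Of 9 measured genes of other ion-pumping ATPases and their regulators 0 passed in any of these comparisons. The medians over all tested probe sets were 0.05 for food minus control, -0.04 for water minus food and 0.07 for the set difference. Of all tested probe sets, 4.77% were called higher and 3.76% lower in food deprivation against control. In water against food deprivation these shares were 0.133% and 0.0184%, and between the array sets 9.49% and 6.44%.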

How the data were processed

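Each deposited value is a linear signal intensity of a probe set. The submitters' processing notes name GCOS 1.2 for the authors' step and state neither what it did nor to what target arrays were scaled. Every array has the same 2% trimmed mean (100.02 to 100.03), while the quantiles differ. No further normalization was applied, and log2(signal + 16) was analysed. Probe sets whose mean exceeded the 30th percentile were tested (21729, 11510 genes). R 4.3.3 and limma 3.58.1 fitted the 3 groups (12 residual degrees of freedom, variance trend, two-sided, Benjamini-Hochberg over all tested probe sets, threshold 0.05), and again with the array set as a term (11), a split at a mean log2 5′/3′ ratio of -1. On simulated arrays with independent noise, the fit recovered known steps, which were larger than any difference of the pump genes. The simulation did not test smaller differences, or whether food deprivation can be told apart from the array set. For a gene with several probe sets that with the highest mean over all arrays stands for it. Correlations used 100000 permutations in Python 3.11.15. The genes, lists, array sets and tests were chosen with earlier results of these data known. Because Fxyd2's values on these arrays chose the genes, its differences and correlations carry no p and counts of calls leave it out, a choice made after seeing the data. All 7 genes are named. Of the other lists, genes that passed are named, and the 5 nearest to Fxyd2 by Pearson's r. Arrays give no counts, and their number limits the precision. Deviations from the group means correlated at -0.36 to 0.37 (median -0.01) between same-number arrays of different groups. Between arrays of different numbers they correlated at -0.61 to 0.56 (median 0.02). These deviations still hold the array set split of the water-deprived group, so they cannot exclude that replicate numbers pair the samples.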

Additional observations from a re-analysis of the deposited data

Results flagged for a closer look

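Among the 27 groups of 5 arrays formed by 9 probe sets and 3 groups, 2 held an array whose gap to its nearest neighbour exceeded 0.71 of the group's range on the log2 scale. Chance flags about 1 in 20 groups. The brighter Atp1b1 probe set was at 3350 on food-deprived array 2, against 2677 to 2850 on the other food-deprived arrays (gap 0.72 of the range). The dim Atp1b2 probe set was at 46.5 on control 5, against 27.0 to 30.4 on the other controls (gap 0.80 of the range). Without those arrays Atp1b1 differed between food deprivation and control by 0.23, and the brighter Atp1b2 probe set kept its call.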

How the results depend on the processing

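The Atp1b2 decrease in food deprivation was called under the scalings, offsets, filters and variance setting tried, with the replicate block, in the 10 arrays compared and without each array in turn (-1.33 to -1.20). It was lost with the 5′/3′ ratio as a term (-0.68) and with the array set as a term, where the sign turned (0.29). Of the 8 probe sets other than that of Fxyd2, the calls between food deprivation and control were 1 without each array in turn, 0 with either term, and 3 in a fit of the 10 arrays alone. Over all tested probe sets 8.53% were called as deposited, 0% with the array set, 0.64% with the ratio and 19.3% in the 10 arrays alone. Water against food deprivation had 0 calls among the 8 in each alternative. Whether the replicate numbers pair the samples is not given in the labels. With the array set as a term the block ended the Atp1b1 set difference (0.44, adjusted p = 0.0684), which left 1 of 2 calls between array sets, and reduced the 6 higher probe sets of water deprivation against control, Fxyd2 among them, to 0. It changed no other call of the 8 probe sets that was computed with it. Fxyd2 between water deprivation and control, 0.78, was 1.18 with the array set as a term or in the low arrays alone, and 0.66 to 0.96 without each array in turn.

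Apart from Atp1b2 and the untested values of Fxyd2, signs turned only for values that did not pass. With the array set as a term, food minus control became 0.65 for Fxyd2, -0.19 for Fxyd7, -0.15 for Atp1b1 and -0.22 for Atp1b3. With the ratio it became -0.013 for Fxyd7 and -0.066 for Atp1b3. Fxyd7 also turned with quantile normalization (-0.015), median centring (-0.095) and an offset of 64 (-0.032). Water minus food, with the term or in the high arrays alone, became 0.22 for Atp1b1 and -0.39 for Atp1b2. Quantile normalization turned it for Fxyd1 (-0.021), Atp1b1 (0.018) and Atp1b3 (-0.058), and median centring (0.050), the ratio (0.044) and the dimmer probe set (0.016) for Atp1b1. Without each array in turn, food minus control ran from -0.25 to 0.14 for Fxyd1 and from -0.20 to 0.37 for Fxyd7. Water minus food then ran from -0.15 to 0.26 for Fxyd1, -0.13 to 0.021 for Atp1b1 and -0.10 to 0.19 for Atp1b3. The set difference with the block turned to 0.016 for Fxyd1 and -0.22 for Fxyd7, and without each array in turn it ran from -0.60 to 0.54 and from -0.019 to 0.41, while the calls of the 8 probe sets between array sets ran from 1 to 3. Median centring moved the median of all probe sets in food minus control from 0.05 to -0.06, and the higher calls in water against food deprivation from 29 to 93 (88 after quantile normalization). The causes were not tested.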
